A study of Mus musculus with 2 samples.

Results

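The Aldh1a3 and Six3 epithelium of the mouse upper face was defined by counts of unique molecular identifiers (UMIs, each standing for 1 captured transcript) in single cells, and held 482 of the 1255 epithelial cells and of the 14860 cell barcodes in all. Members had at most 10% of their UMIs in mitochondrial genes, 2 or more Epcam UMIs and at most 2 UMIs of the mesenchymal factors Prrx1, Prrx2 and Twist1 together. They also had 4 or more UMIs of Aldh1a3 and Six3 together, at most 2 of Elavl3 and Elavl4, at most 1 of Gabrp, at most 1 of Dkk4, and at most 1 of Gad2 and Cdkn2a together. The comparison cells were the 773 other cells with the same Epcam and mesenchymal limits. Both the definition and the working name, nasal pit epithelium, came from values of these same cells, so levels of the 12 genes of the gate and of the label markers Dmrta2 and Igfbp5 are given as description, without a test.

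The tissue was the lambdoid junction of E11.5 embryos, the site in the developing upper face at which nasal and maxillary outgrowths meet. One library came from wild-type C57BL/6J embryos, and the other from embryos labelled C57BL/6J with the genotype Crect; ROSA26-lacZ, which carry a Cre transgene active in early ectoderm and a lacZ reporter. Each library pooled the dissociated tissue of 4 to 5 embryos, so there was 1 library per genotype, no test between genotypes was possible, and animals within a pool could not be told apart. The wild-type library held 7966 barcodes and 126638790 UMIs, and the Crect; ROSA26-lacZ library 6894 barcodes and 127765199 UMIs. The mitochondrial limit dropped 57 and 207 barcodes. The 2 libraries shared 76 barcode sequences, none of them among the epithelial cells.

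The nasal pit forms when the olfactory placode, a thickening of the head ectoderm, sinks in between the nasal prominences. Its epithelium gives rise to olfactory sensory and respiratory lining, and its rim signals to the neighbouring mesenchyme. Aldh1a3 encodes an enzyme that oxidises retinaldehyde to retinoic acid, a diffusible signal that acts through nuclear receptors, and Six3 encodes a homeodomain factor of the anterior head. Placodal identity is known to depend on Eya1, Pax6, Sox2 and related factors, while Fgf, Wnt, Notch and Hedgehog signals pattern the epithelium and time its neurogenesis.

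Members made up 269 of 768 epithelial cells in the wild-type library, or 35.0% (exact Clopper-Pearson 95% interval 31.7 to 38.5%). In the Crect; ROSA26-lacZ library they made up 213 of 487, or 43.7% (39.3 to 48.3%). The intervals here and below cover counting error only. Median depth was 15958 UMIs per member in the wild-type and 18514 in the Crect; ROSA26-lacZ library, against 14835 and 16096 in the comparison cells. With every limit of the gate applied after thinning each cell to 8000 UMIs, which left 633 and 453 epithelial cells, the shares were 31.6% and 52.1%.

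Aldh1a3 lies on chromosome 7 (66390890 to 66427517, minus strand, mm10), and Six3 on chromosome 17 (85613608 to 85629302, plus strand). Aldh1a3 ranged from 0 to 70 UMIs per member with a median of 8 in the wild-type library, and from 0 to 63 with a median of 13 in the Crect; ROSA26-lacZ library. Six3 ranged from 0 to 38 with a median of 3, and from 0 to 29 with a median of 4. Both genes were detected in 215 wild-type members (79.9%) and 192 Crect; ROSA26-lacZ members (90.1%). Aldh1a3 alone was detected in 40 and 13 members, and Six3 alone in 14 and 8. Most members thus held both transcripts, and those with a single one held Aldh1a3 more often than Six3. The sources used here do not say whether counting separated Six3 from antisense transcripts.

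**Figure D1:**
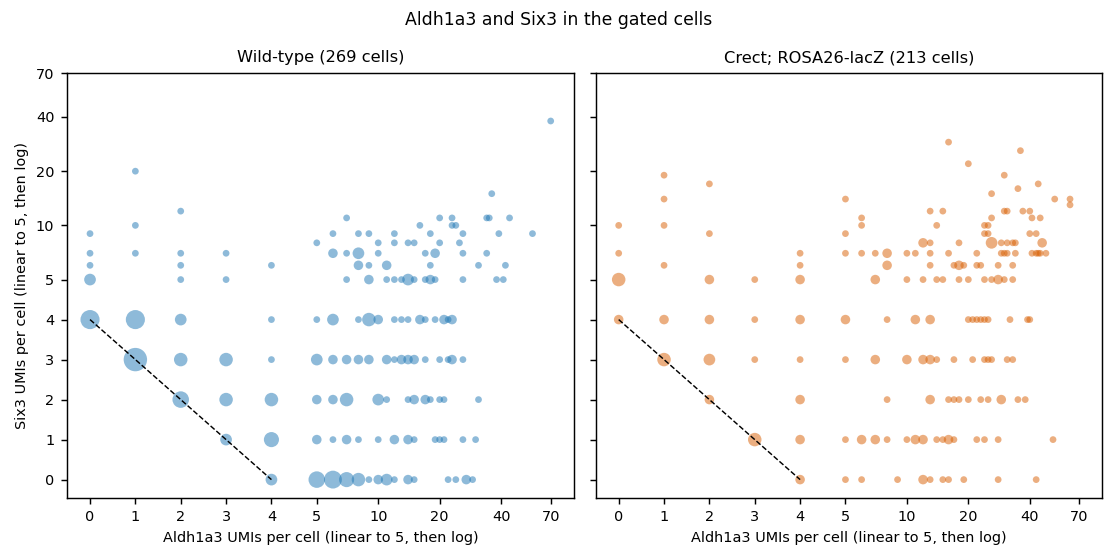
UMIs of Aldh1a3 (x axis) and Six3 (y axis) in each of the 269 wild-type and 213 Crect; ROSA26-lacZ members; both axes are linear to 5 and logarithmic above, point area is proportional to the number of cells at that pair of counts, and the dashed line joins pairs that sum to the minimum of 4. Many wild-type members lie on or near the line, and the row at 0 Six3 UMIs holds 40 wild-type and 13 Crect; ROSA26-lacZ cells.

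Summed over the members of a library, Aldh1a3 was at 576 CPM (counts scaled to 1e6 UMIs per sum) in the wild-type and 905 CPM in the Crect; ROSA26-lacZ library, against 216 and 284 CPM in the comparison cells. Six3 was at 206 and 290 CPM against 67.0 and 124 CPM. Dmrta2, which encodes a doublesex-related factor and was no part of the gate, was at 54.7 and 106 CPM against 22.5 and 36.0 CPM. Igfbp5, an insulin-like growth factor binding protein, was at 1034 and 1108 CPM against 1011 and 1047 CPM. Dmrta2 therefore followed the gate in both libraries, whereas Igfbp5 hardly separated members from other epithelium, although mesenchymal cells had 17.8 and 29.3 CPM. Since 1 of the 2 label markers outside the gate did not separate these cells, they are called here by the genes of the gate.

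The exclusions of the gate also removed cells rich in the same markers. Of the cells with 4 or more UMIs of Aldh1a3 and Six3 together, 94 of 363 wild-type and 67 of 280 Crect; ROSA26-lacZ cells failed an exclusion. Cells excluded for Gad2 and Cdkn2a had 858 and 815 CPM of Aldh1a3, 227 and 364 CPM of Six3, and 1820 and 1673 CPM of Igfbp5. Cells excluded for Dkk4 had 639 and 430 CPM of Aldh1a3 with only 27.9 and 33.7 CPM of Six3. These cells stand in the comparison set, which is thus no Aldh1a3-negative epithelium. At the threshold itself, the 42 wild-type and 18 Crect; ROSA26-lacZ cells with a sum of 3 UMIs had 9.41 and 22.4 CPM of Dmrta2, and the 32 and 14 cells with a sum of 4 had 24.4 and 31.2 CPM.

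Markers of other cell types were checked in the members. Of 7 mesenchymal markers, 3 of which the gate used, none was at 0, and their summed level was 102 CPM in wild-type and 132 CPM in Crect; ROSA26-lacZ members, against 1812 and 1908 CPM in mesenchymal cells. Of 6 lens markers 4 were at 0 in the members of both libraries, the crystallin gene Cryaa among them, as were 4 in the comparison cells, and the sums were 16.3 and 16.5 CPM against 12.5 and 14.3 CPM. Of 6 retinal markers 3 were at 0, with sums of 1.005 and 3.50 CPM against 1.10 and 1.69 CPM. Surface ectoderm markers such as Trp63 and Krt14 summed to 863 and 464 CPM, against 1348 and 1055 CPM in the comparison cells, so these markers were lower in members but well above the mesenchymal sums of 21.0 and 20.4 CPM.

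Each library was summed over members and over comparison cells, and the 4 sums were compared with edgeR's quasi-likelihood test with library as a block. Of 11643 genes tested outside the gate and label markers, 91 were called higher (0.782%) and 165 lower (1.42%) in the members, calls being changes of at least 2-fold whose Benjamini-Hochberg adjusted p was under 0.05. The fit has 1 residual degree of freedom, so its spread was borrowed across genes and between 2 libraries of different genotype. With no library term, edgeR called 0 genes in either direction, with 603 genes at an unadjusted p under 0.05. With DESeq2 and the library term, 31 were called higher and 37 lower.

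Factors of the olfactory placode formed the list with the most higher calls: 7 of 22 tested genes were higher and 1 was lower, with a median log2 change of 0.47 against 0.00 over all genes. Pax6, the paired homeodomain factor needed for eye and nose (chromosome 2, 105668900 to 105697364, plus strand, mm10), was at 40.8 CPM in wild-type members against 7.58 CPM in other epithelium, and at 86.5 against 32.0 CPM in the Crect; ROSA26-lacZ library. Members were higher in both libraries, although the Crect; ROSA26-lacZ comparison cells came close to the wild-type members. The log2 change was 1.81 ± 0.17 (SE; edgeR, Benjamini-Hochberg adjusted p 3.6e-05). Thinned to 8000 UMIs, 29.3% of 256 wild-type and 42.0% of 205 Crect; ROSA26-lacZ members had a Pax6 UMI (42.0% and 65.3% before thinning), against 0.432% and 0.529% of mesenchymal cells, which should lack it. The zinc-finger factor Sp8 was at 29.5 against 11.1 CPM in the wild-type and 82.0 against 36.5 CPM in the Crect; ROSA26-lacZ library (log2 change 1.27 ± 0.12).

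The homeodomain factor Six2 and the phosphatase Eya1, a partner of such factors, were both called higher. Six2 was at 96.3 against 43.4 CPM and 142 against 58.6 CPM in the wild-type and the Crect; ROSA26-lacZ library, a log2 change of 1.22 ± 0.09, and Eya1 at 56.9 against 27.2 CPM and 78.8 against 29.7 CPM. The doublesex-related genes Dmrt3 and Dmrta1 were also called higher, Dmrt3 at 12.5 against 3.05 CPM and 25.8 against 7.80 CPM. Lhx2, a LIM-homeodomain factor of olfactory neuron precursors, was the single member of the list called lower, at 0.80 against 3.91 CPM and 5.25 against 35.8 CPM.

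Genes of neurogenesis were called in the lower direction only: 4 of 13 tested were lower and 0 higher. Neuronal tubulin Tubb3 was at 15.9 against 22.6 CPM in the wild-type and 10.3 against 89.8 CPM in the Crect; ROSA26-lacZ library, so most of the difference lay in 1 library. The others were the proneural factor Neurod1, the early neuronal factor Nhlh2 and Stmn2, a regulator of axonal microtubules. The gate barred cells with more than 2 Elavl3 and Elavl4 UMIs from the members alone, so all such epithelial cells stand in the comparison set. There were 3 in the wild-type and 6 in the Crect; ROSA26-lacZ library, of which 2 and 1 had 4 or more Aldh1a3 and Six3 UMIs. Against comparison cells that passed every exclusion, the Tubb3 log2 change was 0.093 (edgeR, Benjamini-Hochberg adjusted p 0.92), in place of -1.85 (adjusted p 0.00679). Over the other alternatives with a test the Tubb3 adjusted p ran from 5.05e-56 to 0.9999, and its direction stayed lower. Early neuron markers (6 genes, 2 of them used by the gate) summed to 39.6 and 38.3 CPM in members, against 51.7 and 201 CPM in all comparison cells. In comparison cells that passed every exclusion the sums were 17.8 and 37.8 CPM, so members were not below those.

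In the retinoic acid pathway 2 of 16 tested genes were called higher and 0 lower, with a median log2 change of 0.22. Stra6, the membrane receptor for retinol uptake, was at 30.1 against 15.3 CPM in the wild-type and 86.8 against 29.3 CPM in the Crect; ROSA26-lacZ library (log2 change 1.32 ± 0.14; edgeR, Benjamini-Hochberg adjusted p 7.67e-05). Crabp2, the carrier that delivers retinoic acid to its nuclear receptors, was at 340 against 170 CPM and 498 against 239 CPM (log2 change 1.03 ± 0.06; adjusted p 8.77e-07). Both were higher in the members of each library than in the pooled comparison cells. After thinning, a Stra6 UMI was present in 19.9% of wild-type members, 10.9% of comparison cells and 4.79% of those that passed every exclusion. The shares in the Crect; ROSA26-lacZ library were 43.9%, 15.8% and 4.26%. Cells that failed an exclusion thus held Stra6 more often than the rest of the comparison set. The pooled comparison does not place members above each excluded class. Crabp2 lost its call with a gate of 3 UMIs or an Epcam minimum of 3, since its fold stood close to 2.

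The other steps of the pathway changed by less. Rdh10, which makes retinaldehyde from retinol, was at 37.8 against 23.2 CPM and 45.0 against 29.5 CPM, under the fold limit. The other enzymes that make retinoic acid were sparse in members: Aldh1a1 was at 0.00 and 2.25 CPM and Aldh1a2 at 1.81 and 0.75 CPM. Within the Crect; ROSA26-lacZ members, Aldh1a1 was at 43.1 CPM in the 13 cells with 0 Six3 UMIs and at 0 CPM in those with 2 or more. The former level is 9 UMIs, and how many of the 13 cells held them was not counted. In the wild-type library Aldh1a1 was at 0 CPM in both classes. The degrading enzymes Cyp26a1 (2.41 and 8.75 CPM) and Cyp26b1 (7.03 and 10.3 CPM) were not called, and Cyp26c1 was at 0.20 and 0.00 CPM. The receptors Rara, Rarb and Rarg were present at 45.8 and 53.5, 8.64 and 7.00, and 44.8 and 29.0 CPM, and none was called. Crabp1, the other retinoic acid carrier, had a log2 change of -0.52 ± 0.09, with 169 against 215 CPM and 104 against 175 CPM.

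**Figure D2:**
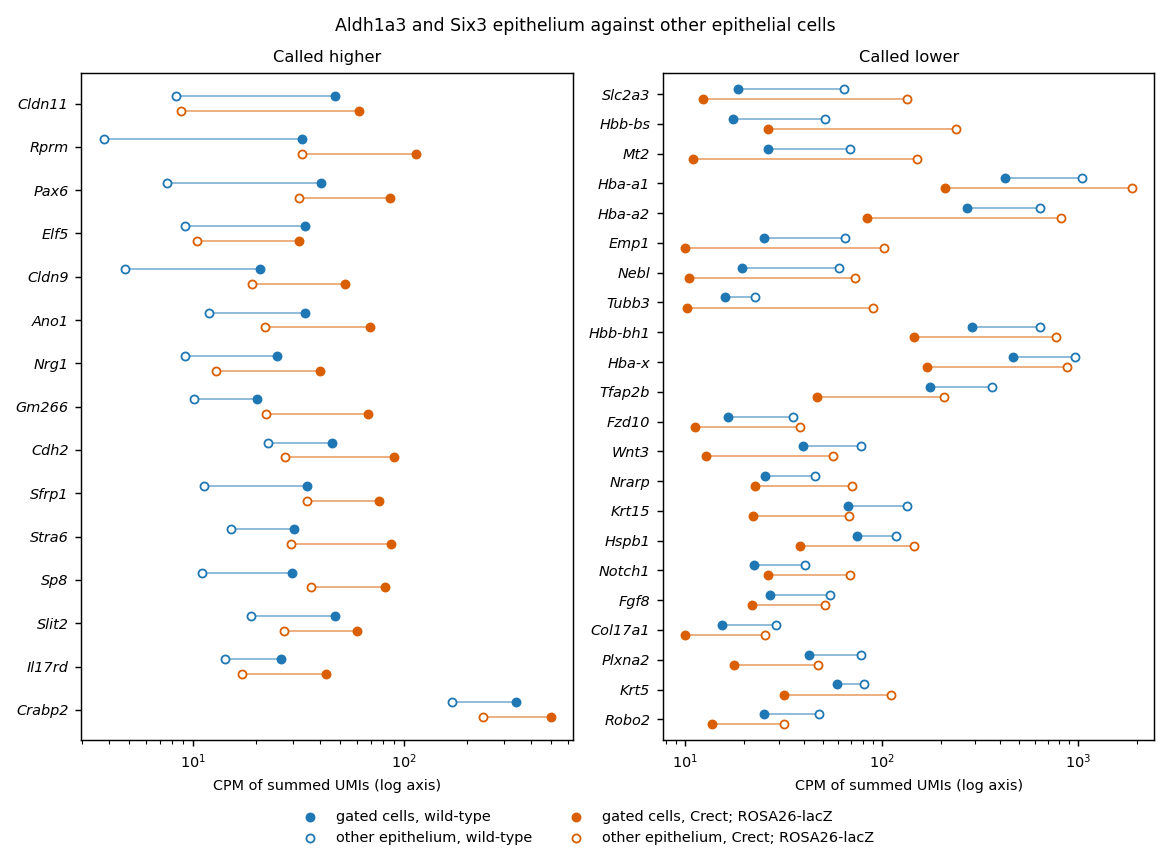
Summed levels in CPM (log axis) of the 37 named genes in members (filled) and in other epithelial cells (open) of the wild-type (blue) and Crect; ROSA26-lacZ (orange) library; each point is 1 sum and has no error bar. These genes were chosen for the same direction in both libraries, and the line is longer in the Crect; ROSA26-lacZ library for Tubb3 (15.9 against 22.6 CPM and 10.3 against 89.8 CPM).

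Among 20 tested Fgf pathway genes 1 was called higher and 2 lower. Il17rd (Sef), a membrane inhibitor of Fgf receptor signalling, was at 26.3 against 14.3 CPM in the wild-type and 42.8 against 17.1 CPM in the Crect; ROSA26-lacZ library (log2 change 1.10 ± 0.15), and lost its call with DESeq2, a gate of 3 UMIs or an Epcam minimum of 3. The ligand Fgf8 was lower in members of both libraries, at 27.1 against 54.7 CPM and 21.8 against 51.4 CPM (log2 change -1.10 ± 0.12). Fgfr3 was also called lower, from levels of 5.27 CPM or less. The ligands Fgf9 and Fgf17 went the other way without reaching a fold of 2, with log2 changes of 0.57 ± 0.09 and 0.80 ± 0.14.

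In the Wnt list 8 of 43 tested genes were called lower and 1 higher. Sfrp1, a secreted Wnt antagonist, was higher at 35.0 against 11.4 CPM and 76.5 against 35.0 CPM (log2 change 1.33 ± 0.13). The lower genes were the ligands Wnt3, Wnt6, Wnt7b, Wnt9b and Wnt10a, the receptor Fzd10, Lgr6 and the antagonist Dkk2. Wnt3 was at 39.8 against 78.8 CPM in the wild-type and 12.8 against 56.5 CPM in the Crect; ROSA26-lacZ library. Wnt6 was at 217 against 364 CPM and 78.5 against 317 CPM. In each of these the members of both libraries lay below the other epithelium.

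The Notch list had 3 of 13 tested genes lower and 0 higher: the receptor Notch1, its target Nrarp and the fringe enzyme Mfng. Notch1 was at 22.5 against 40.7 CPM and 26.5 against 69.1 CPM. Notch1 and Nrarp kept their direction but not the fold of 2 against comparison cells that passed every exclusion, with log2 changes of -0.54 and -0.63. In the Hedgehog list 1 of 11 was lower, the ligand Shh itself, at 8.04 against 20.6 CPM and 6.00 against 28.4 CPM. None of 25 tested Bmp and Tgf-beta genes and none of 11 genes of the Igf axis was called, although 4 and 2 of them had an adjusted p under 0.05 in the higher and 5 and 3 in the lower direction.

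N-cadherin (Cdh2) was at 45.8 against 22.8 CPM in the wild-type and 90.0 against 27.4 CPM in the Crect; ROSA26-lacZ library, the 1 higher call of 35 adhesion genes, with 3 lower. Claudin-11 (Cldn11, chromosome 3, 31149920 to 31164324, plus strand, mm10), a tight junction protein outside the lists, had the largest change of the named genes. It was at 47.4 against 8.31 CPM and 61.5 against 8.85 CPM, a log2 change of 2.64 ± 0.14 (edgeR, Benjamini-Hochberg adjusted p 3.31e-07). After thinning, 22.7% of wild-type members (exact 95% interval 17.7 to 28.3%) and 22.0% of Crect; ROSA26-lacZ members (16.5 to 28.2%) had a Cldn11 UMI, against 31.2% and 31.9% unthinned. The thinned share was 3.00% and 4.58% in other epithelium and 5.51% and 7.94% in mesenchymal cells.

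Of 8 tested keratins 2 were called lower and 0 higher. The stratified-layer keratins Krt5 and Krt15 were the lower pair, Krt15 at 67.5 against 135 CPM and 22.0 against 68.5 CPM. Krt5 was at 59.1 against 81.0 CPM and 32.0 against 112 CPM, and lost its call under 5 of 13 alternatives, DESeq2 and comparison cells that passed every exclusion among them. The simple-epithelium keratins Krt8 and Krt18 had log2 changes of 0.50 ± 0.07 and 0.60 ± 0.07, and Krt7, another of that kind, -0.91 ± 0.14, all under the fold limit. Tfap2b, an AP-2 factor of surface ectoderm, was at 176 against 365 CPM and 47.0 against 209 CPM (log2 change -1.46 ± 0.16; edgeR, Benjamini-Hochberg adjusted p 9.5e-05). Crispld2 was the other of 22 surface ectoderm and cleft factors called lower. The hemidesmosome collagen Col17a1 was the 1 lower call of 26 matrix genes.

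Among 37 guidance genes 2 were higher and 3 lower. The repellent ligand Slit2 was at 47.2 against 18.9 CPM in the wild-type and 60.0 against 27.0 CPM in the Crect; ROSA26-lacZ library (log2 change 1.24 ± 0.12), while its receptor Robo2 was at 25.3 against 47.9 CPM and 13.8 against 31.8 CPM. Robo2 lost its call under 6 of 13 alternatives. The ephrin receptor Ephb1 was the other higher gene, and the semaphorin receptor Plxna2 and the ligand Sema3e the other lower genes. Cell cycle genes were not called by edgeR. Among 30 genes of S phase 0 had an adjusted p under 0.05 (median log2 change 0.15), and among 30 of mitosis and its approach 1 did (median 0.16), with a fold under 2. Among 20 dissociation response genes 2 were higher (Egr1 and Socs3) and 2 lower (Hspb1 and Klf2).

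Outside the lists, the named genes with the largest rises were led by Cldn11 and Rprm, a gene for a p53-induced cell cycle arrest protein. Rprm was at 33.2 against 3.79 CPM in the wild-type and 115 against 32.9 CPM in the Crect; ROSA26-lacZ library (log2 change 2.17 ± 0.19). The epithelial Ets factor Elf5 was at 34.0 against 9.16 CPM and 32.0 against 10.5 CPM. The calcium-activated chloride channel Ano1 was at 34.0 against 11.97 CPM and 69.3 against 22.1 CPM. Claudin-9, neuregulin-1 (Nrg1) and the predicted gene Gm266 had log2 changes of 1.71, 1.55 and 1.37.

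The largest falls included marker genes of red cells and periderm. Haemoglobin genes Hbb-bs, Hba-a1, Hba-a2, Hbb-bh1 and Hba-x were lower by log2 changes of -2.53 to -1.66, with Hba-a1 and Hba-a2 near-identical copies whose counts may be split. The 4 erythroid markers summed to 3109 CPM in wild-type members against 6215 CPM in other epithelium, and to 1548 against 8249 CPM in the Crect; ROSA26-lacZ library. The 5 endothelial markers summed to 12.1 against 19.8 CPM and 8.25 against 73.3 CPM. The periderm marker Emp1 was at 25.3 against 65.4 CPM and 10.0 against 102 CPM, and stood at 654 and 805 CPM in the excluded Gabrp cells. The glucose transporter Slc2a3 and metallothionein Mt2 fell as well, Slc2a3 at 18.5 against 63.9 CPM and 12.3 against 134 CPM. The part of red cell, endothelial or periderm transcripts in these differences was not tested.

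**Figure D3:**
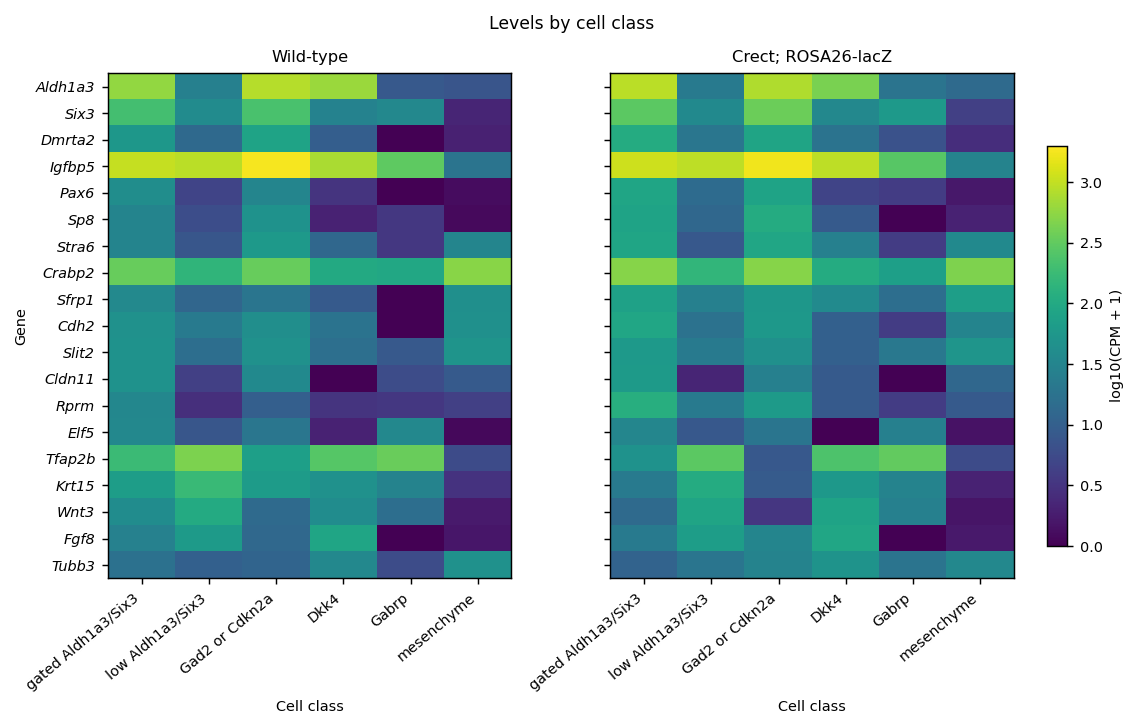
Levels of 19 genes, as log10(CPM + 1), in members, in 4 other classes of epithelial cells and in mesenchymal cells of each library; cells excluded for Gad2 or Cdkn2a and for Dkk4 are shown separately. Aldh1a3 was high in members and in both of these excluded classes (858 and 639 CPM in the wild-type library), whereas Six3 was low in the Dkk4 class (27.9 CPM).

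Members were not uniform. Those with 2 or more Six3 UMIs (204 wild-type and 174 Crect; ROSA26-lacZ cells) were compared with those with 0 (40 and 13 cells), again as 4 sums. Of 9931 genes tested, 140 were called higher (1.41%) and 87 lower (0.876%) in the Six3-positive cells. The estimated prior degrees of freedom were infinite, so the spread came from all genes together, and p-values do not measure how a single gene repeated between libraries. Only 13 cells stand behind the Crect; ROSA26-lacZ Six3-zero sum, and median depth was 17407 and 15770 UMIs in Six3-zero against 15982 and 19135 in Six3-positive cells. DESeq2 called 21 and 25 genes.

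The gate required Aldh1a3 of every Six3-zero cell, and it was at 559 and 890 CPM there against 570 and 913 CPM in the Six3-positive cells. Dmrta2 was at 11.3 and 67.0 CPM against 64.2 and 108 CPM, and Igfbp5 at 690 and 282 CPM against 1086 and 1170 CPM. Of the placode factors 7 of 17 tested were called higher and 0 lower: Six2, Pax6, Sox2, Otx1, Dmrt3, Sp8 and Gata3. Sox2, Otx1 and Gata3 were not called in the first comparison, with log2 changes of 0.37, 0.13 and 0.68. Neurogenesis genes had 4 of 9 higher and 0 lower, Stmn2 and Dlk1 among them, whereas Stmn2 was lower in the first comparison. Pax6 was at 47.7 CPM in Six3-positive and 8.45 CPM in Six3-zero wild-type cells, and at 91.1 and 23.9 CPM in the Crect; ROSA26-lacZ library. Sox2, a factor of neural and placodal progenitors, was at 129 against 21.1 CPM and 101 against 47.9 CPM. The same direction thus held in both libraries for both genes.

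Fgf genes were called in both directions in this comparison. The ligands Fgf8, Fgf9 and Fgf17 were called higher in Six3-positive cells, 3 of 15 tested. Fgf8 was at 29.6 against 8.45 CPM in the wild-type and 21.1 against 4.79 CPM in the Crect; ROSA26-lacZ library. After thinning, an Fgf8 UMI was present in 8.59% of Six3-positive against 5.71% of Six3-zero wild-type cells. In the Crect; ROSA26-lacZ library the shares were 6.55% against 7.69%, the latter being 1 of 13 cells (exact interval 0.195 to 36.0%). With 1 such cell, whether the share followed the summed level of Fgf8 there cannot be told. Fgf9 was at 143 against 54.9 CPM in the wild-type and 136 against 57.4 CPM in the Crect; ROSA26-lacZ library. Fgf17 was at 26.6 against 4.22 CPM and 42.8 against 9.57 CPM, with 3 and 2 UMIs in the Six3-zero cells, so the ratios of 6.29 and 4.47 have exact intervals of 2.09 to 31.0 and 1.21 to 37.2. Fgf17 lost its call with DESeq2, without the library term and when the split followed thinning. The 6 genes called lower, Dusp6, Etv1, Etv4, Etv5, Spry1 and Spry2, are known as targets and feedback inhibitors of Fgf signalling. Other inhibitors (Il17rd, Spred1 and Spred2) were not called. The ligands Fgf15 and Fgf20 were too sparse to test, at 3.09 against 15.5 CPM and 1.55 against 8.45 CPM in the wild-type library. Dusp6, the phosphatase that inactivates Erk (chromosome 10, 99263231 to 99267489, plus strand, mm10), was at 27.1 against 169 CPM and 22.0 against 182 CPM (log2 change -2.78 ± 0.21; edgeR, Benjamini-Hochberg adjusted p 9.78e-35). Etv5 was at 18.8 against 70.4 CPM and 25.8 against 76.6 CPM.

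**Figure D4:**
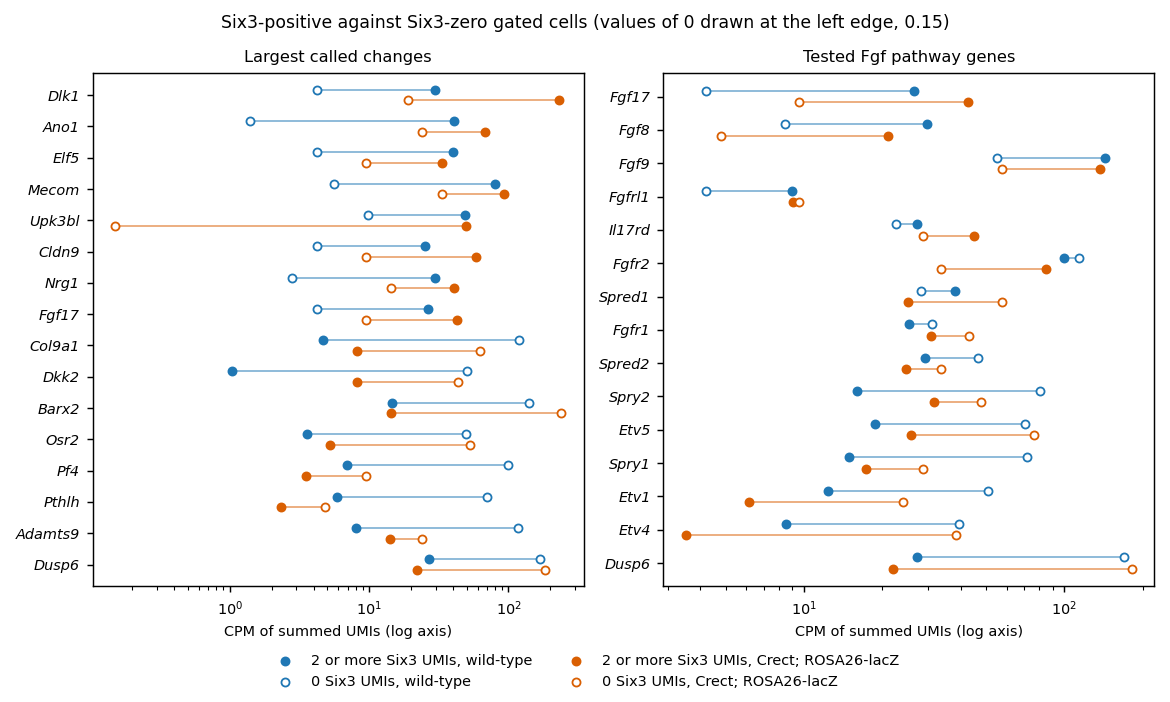
Summed levels in CPM (log axis) in members with 2 or more Six3 UMIs (filled) and with 0 (open) of the wild-type (blue) and Crect; ROSA26-lacZ (orange) library, for the 16 largest called changes (left) and the 15 tested Fgf pathway genes (right); a level of 0 is drawn at the left edge. Dusp6 lies at 27.1 against 169 CPM and 22.0 against 182 CPM, and the ligands at the top of the right panel run the other way.

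Genes high in the Six3-zero members included the cartilage and epithelial collagen gene Col9a1 and the homeobox gene Barx2. Col9a1 was at 118 CPM in wild-type and 62.2 CPM in Crect; ROSA26-lacZ Six3-zero cells, against 4.64 and 8.20 CPM (log2 change -3.96 ± 0.32). Barx2 was at 141 and 239 CPM against 14.7 and 14.3 CPM. The Wnt antagonist Dkk2 was at 50.7 and 43.1 CPM against 1.03 and 8.20 CPM, and Osr2, an odd-skipped factor, at 49.3 and 52.6 CPM against 3.61 and 5.27 CPM. In the cells excluded for Dkk4, Col9a1 was at 185 and 125 CPM, Dkk2 at 117 and 114 CPM and Dusp6 at 290 and 230 CPM, while Osr2 was at 2.15 and 22.5 CPM. Col9a1, Dkk2 and Dusp6 were therefore also high in that excluded class. Osr2 was not high there in the wild-type library, and in the Crect; ROSA26-lacZ library it lay between the Six3-positive and Six3-zero members. Pf4, Pthlh and Adamts9 were the other lower genes of the 16, and in the Crect; ROSA26-lacZ Six3-zero cells Pf4 and Pthlh rested on 2 and 1 UMIs. Adamts9 rested on 5 UMIs there, and its ratio of 0.587 in that library has an exact interval of 0.235 to 1.89.

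On the Six3-positive side, Dlk1, a Notch-related membrane protein, was at 29.6 against 4.22 CPM in the wild-type, a ratio of 7.02 (exact interval 2.34 to 34.5), and at 230 against 19.1 CPM in the Crect; ROSA26-lacZ library. Mecom, a zinc-finger factor, was at 80.4 against 5.63 CPM and 92.8 against 33.5 CPM. Ano1, Elf5, Cldn9 and Nrg1, which the first comparison also named as higher, were among the 8 largest rises here. Both comparisons hold the Six3-positive cells, the Six3-zero sums of these 4 genes held 1 to 5 UMIs, and all 4 lost their call here with DESeq2. Upk3bl was called higher with 190 UMIs against 7 in the wild-type, and with 170 against 0 in the Crect; ROSA26-lacZ library. Keratins were called higher in 4 of 8 tested (Krt5, Krt8, Krt18 and Krt19), and adhesion genes in 7 of 30 with 1 lower. Krt18 was at 304 against 59.1 CPM and 315 against 144 CPM. Surface ectoderm factors had 7 of 20 higher and 2 lower, Wnt genes 1 of 37 higher and 6 lower. Dissociation response genes had 3 of 16 higher (Fos, Junb and Hspb1) and 1 lower (Myc), with the immediate-early gene Fos at 34.3 against 5.63 CPM and 21.1 against 0 CPM. The part of a dissociation response in the Six3 comparison was not tested.

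Both transgenes were read in the members. In the Crect; ROSA26-lacZ library a Cre UMI was present in 113 of 213 members, or 53.1% (exact Clopper-Pearson 95% interval 46.1 to 59.9%), at a median depth of 18514 UMIs. The share was 62.0% in other epithelium and 1.13% in mesenchymal cells, whose median depth was 17567 UMIs. A lacZ UMI was present in 63 members, or 29.6% (23.5 to 36.2%), against 27.0% in other epithelium and 2.37% in mesenchymal cells. Members thus lay far above the mesenchymal background for both.

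Differences between the libraries are ratios of 2 libraries, with no test. Among members, 7765 genes had 100 or more UMIs in total, of which 62 (0.798%) were at least 2-fold higher and 159 (2.05%) at least 2-fold lower in the Crect; ROSA26-lacZ library. Of these, 26 (41.9%) and 65 (40.9%) moved past 2-fold the same way in mesenchymal cells, where 195 (1.51%) and 360 (2.78%) of 12949 genes passed these limits and the shared genes were 13.3% and 18.1% of them. The genes named next were chosen after their values were seen. The predicted gene Gm10260 was 43.8-fold higher in members and 49.9-fold higher in mesenchymal cells, and the histone gene Hist1h1b was at a ratio of 0.126 and 0.133. Igf2 was at 615 and 187 CPM in wild-type and Crect; ROSA26-lacZ members (ratio 0.303), and its ratio was 0.366 in other epithelium and 0.418 in mesenchymal cells.

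Other ratios were less alike between the classes. Dlk1 was at 26.1 and 212 CPM in wild-type and Crect; ROSA26-lacZ members, a ratio of 8.11 (exact interval 6.73 to 9.83), against 7.93 in other epithelium and 1.91 in mesenchymal cells. Tfap2b was at 176 and 47.0 CPM in members, a ratio of 0.267 (0.227 to 0.313), against 0.571 and 0.990. Stra6 was at a ratio of 2.88 (2.37 to 3.51) in members, 1.92 in other epithelium and 1.20 in mesenchymal cells. Aldh1a3 and Six3 were at ratios of 1.57 and 1.41 in members, and at 1.32 and 1.85 in other epithelium. In mesenchymal cells, where both were low, the ratios were 2.04 and 2.70. Genotype, embryos, library and depth cannot be told apart in these ratios.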

How the data were processed

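Unnormalized UMI counts were deposited for each gene and barcode, made with Cell Ranger 2.0 on build mm10 per the submitters' processing notes, from 10x Genomics 3' v2 libraries per the labels. The sources used here do not give the barcode filter. Cells were gated on these counts and summed per library and class, 4 sums a fit. Sums were fitted with edgeR 4.0.16 (TMM, filterByExpr, quasi-likelihood test, library as a block) in R 4.3.3, with Benjamini-Hochberg adjustment over all genes. Data were also simulated with a common spread and no library difference. There, 84% of 2-fold changes in the first comparison (11616 genes) had an edgeR adjusted p under 0.05 and the right sign. The share was 30.5% in the Six3 comparison (9943 genes). The fold limit was not applied, so these shares are not recovery rates of the calls.

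Members and gene lists were chosen with earlier results of these data known. Named genes were up to 2 called genes per list and direction that agreed in sign between libraries and averaged at least 20 CPM, then the 10 (Six3 comparison 8) largest changes per direction. Some items are not reported here. Other list genes are given as examples chosen after their values were seen. Mesenchymal reference cells had 5 or more Prrx1, Prrx2 and Twist1 UMIs and 0 Epcam UMIs. Doublets were not removed, apart from 1 alternative, in which the highest Scrublet scores (scanpy 1.11.5), 0.8% per 1000 barcodes, were left out; these took 7 members of each library. Coordinates are from GENCODE on mm10, matched for 27645 of 27998 gene IDs. Alternatives included DESeq2 1.42.0. The limit of 50000 UMIs per cell was chosen after seeing the data. The libraries are 1 per genotype and share the replicate number 1, so the library term served as the block.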

Additional observations from a re-analysis of the deposited data

How the results depend on the processing

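The 91 higher and 165 lower calls against other epithelium became 31 and 37 with DESeq2 (45.6% of calls higher, against 35.5%), and 0 and 0 with no replicate block (no library term; 603 genes at an unadjusted p under 0.05). Gating after thinning gave 264 and 368, a gate of 6 UMIs 141 higher, a gate of 3 UMIs 103 lower, and comparison cells that passed every exclusion 223 higher (49.1% of calls), with the Tubb3 log2 change reversed to 0.093. The 140 and 87 calls of the Six3 comparison became 21 and 25 with DESeq2 (45.7% higher, against 61.7%), 9 and 10 without the library block (47.4%), and 87 higher when the split followed thinning. With all genes kept there, the median log2 change over all genes moved to 0.19. The wild-type share of 35.0% was 40.5% at a gate of 3, 27.0% at 6 and 31.6% after thinning. The Crect; ROSA26-lacZ share of 43.7% was 38.4% at 6, 48.7% at 3 Epcam UMIs and 52.1% after thinning.

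Of the named genes, 14 of 37 and 7 of 16 lost their call with DESeq2, and 37 of 37 and 12 of 16 without the library term. Where no cause is given, the cause was not tested. The design of 2 pooled libraries limits every p-value, and the Six3 comparison has 13 Six3-zero cells in 1 library.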

Other observations

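The RefSeq promoter windows of GRCm38.p6 (250 bases before to 50 after each start) were searched on both strands for the letters TGATAC, a core site of the homeodomain factor Six2. This was the only motif searched, and it was chosen with the calls known. It was in 5.46% of all 32851 windows. Of the 91 genes called higher in the Aldh1a3 and Six3 epithelium 65 were matched, and 2 of their 90 windows (2.22%) held it. Of the 165 genes called lower 113 were matched, and 5 of their 146 windows (3.42%) held it. Of the 15 named higher genes 10 were matched, and none of their 17 windows held these letters.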
